A study of Mus musculus with 5 samples.

Results

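miR-103 and miR-107 are a pair of microRNAs with almost the same sequence, and they are 2 of the 217 miRNA assays measured here through injury and repair of a mouse leg muscle. They were chosen by assay name, and because on day 1 after injury the level of miR-107 lay far below baseline while that of miR-103 did not. Day 1 against baseline and day 3 against day 1 are therefore described without a test. The tests of later days against baseline, of each miRNA and of their ratio, reuse the baseline values that entered the choice, so their p-values are not independent of it. The groups were tibialis anterior muscles of C57BL/6J males aged 4 to 6 months, taken 1, 3, 4, 7 or 21 days after an intramuscular injection of cardiotoxin (CTX, 2.5 µM, 100 µl, both hind limbs), and the same muscle of uninjected mice as baseline. Cardiotoxin is a snake venom peptide that destroys myofibres and spares the satellite cells that rebuild them. Each group held 4 values per assay, and the labels give 4 mice for each time point. The files do not tie a value to a mouse, so the p-values below measure the spread between these values, which may be partly technical. The same 4 baseline values serve every comparison with baseline.

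A miRNA pairs with matching sites in mRNAs, mainly through its seed, bases 2 to 8 from the 5′ end, and lowers translation or stability of those mRNAs. The genes of miR-103 and miR-107 lie inside the pantothenate kinase genes Pank3, Pank2 and Pank1, whose enzymes catalyse the first committed step of coenzyme A synthesis. Both miRNAs are known as regulators of insulin sensitivity through caveolin-1 in liver and fat, and as inhibitors of Dicer, the enzyme that cuts miRNA precursors. In bulk muscle, fewer cells of a type and less RNA per cell cannot be told apart.

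The mature sequences are shown because a single base separates the pair. They come from RefSeq (build GRCm38.p6) and are written 5′ to 3′ with the seed in capitals. The assay names give no precursor arm, and the arms printed are those that older catalogues listed under the plain names. Both members are arms named 3p. miR-103 is made from loci on chromosome 11 (chr11:35782447-35782469, plus strand) and chromosome 2 (chr2:131288103-131288125, plus strand), and miR-107 from chromosome 19 (chr19:34820700-34820722, minus strand).
miR-107: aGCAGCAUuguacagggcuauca
miR-103: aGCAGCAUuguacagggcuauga
Counted from the 5′ end of miR-103, the difference is G22C, the only 1 in 23 bases, and both have the seed GCAGCAU. All that separates them lies outside the seed, near the 3′ end.

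The 3 precursor hairpins are shown because each lies within the span of a different Pank gene. The mature sequence is in capitals, at bases 52 to 74 of each.
Mir107, within Pank1: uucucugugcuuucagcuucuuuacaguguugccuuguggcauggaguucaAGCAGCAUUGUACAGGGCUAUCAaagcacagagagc
Mir103-1, within Pank3: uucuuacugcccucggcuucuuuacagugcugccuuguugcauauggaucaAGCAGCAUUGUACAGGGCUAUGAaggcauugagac
Mir103-2, within Pank2: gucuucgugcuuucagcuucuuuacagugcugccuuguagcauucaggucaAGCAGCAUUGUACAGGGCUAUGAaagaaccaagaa
The miR-107 precursor is on the minus strand of chromosome 19 (chr19:34820687-34820773). The precursors of miR-103 are on the plus strands of chromosome 11 (chr11:35782396-35782481) and chromosome 2 (chr2:131288052-131288137). A miR-103 assay reads the product of both its loci together.

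Another 7 measured miRNAs carry the same 6 letters, AGCAGC, but start 1 base later, so that their seeds are AGCAGCA or, in miR-503, AGCAGCG. They are printed as relatives by seed from a hand-made list, and the whole assay set was not searched by sequence.
miR-15a: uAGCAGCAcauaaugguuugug
miR-15b: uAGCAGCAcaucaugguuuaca
miR-16: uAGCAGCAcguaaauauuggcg
miR-195: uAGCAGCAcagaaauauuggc
miR-322: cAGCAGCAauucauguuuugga
miR-497: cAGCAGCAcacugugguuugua
miR-503: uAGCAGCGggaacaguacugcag

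Levels were read as Ct, the threshold cycle at which PCR product is first seen. A lower Ct means more RNA, and 1 cycle is about a factor of 2. In the order of the file, the Ct of miR-107 was 29.01, 29.11, 28.58 and 28.03 at baseline and 33.00, 34.17, 29.74 and 30.21 on day 1. It was 29.36, 29.52, 29.58 and 30.04 on day 3, and 27.62, 26.99, 27.76 and 27.71 on day 4. On day 7 it was 28.00, 27.71, 27.95 and 27.31, and on day 21 it was 28.88, 29.40, 28.95 and 30.26. Every value of miR-107 on days 1 and 3 was later than every baseline value, and every value on days 4 and 7 was earlier than every baseline value. Days 4 and 7 lie on the far side of baseline only in unscaled Ct, and the scaled values below do not keep that separation.

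The Ct of miR-103 hardly moved. It was 23.92, 24.06, 23.55 and 23.15 at baseline, 22.99, 23.42, 23.54 and 24.16 on day 1, and 23.14, 24.49, 23.01 and 24.47 on day 3. It was 22.94, 23.59, 23.14 and 23.20 on day 4, 23.61, 24.33, 23.45 and 24.08 on day 7, and 24.75, 23.79, 24.22 and 24.05 on day 21. The 6 group means of miR-103 lay between Ct 23.2 and 24.2, and those of miR-107 between 27.5 and 31.8. The 5 or so cycles between the assays are not a ratio of molecules, since how well each assay amplifies is not given in the sources used here.

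**Figure D1:**
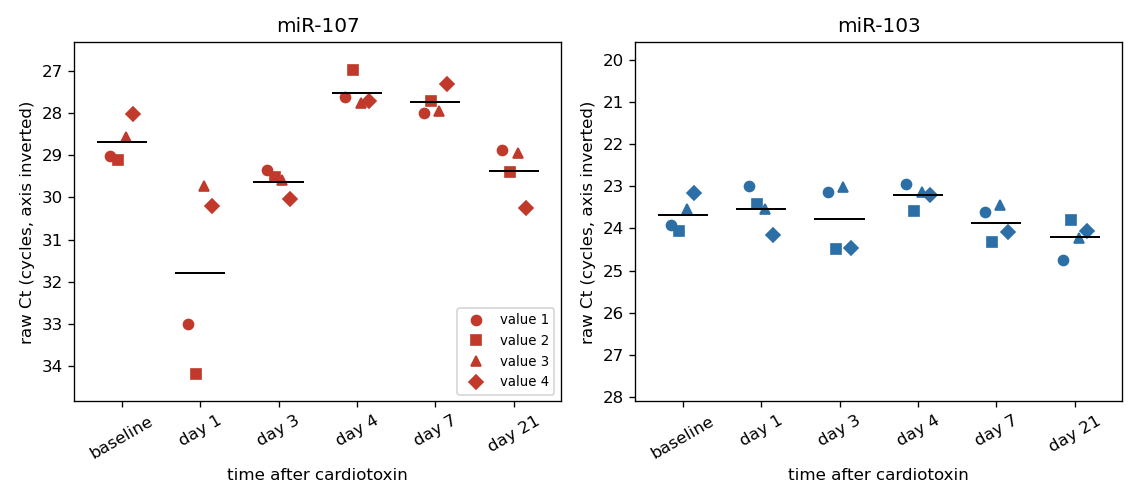
Raw Ct of miR-107 (left) and miR-103 (right) at baseline and on each day, with inverted vertical axes of equal span, so that more RNA is higher. Symbols are the 4 values by their position in the file and bars are means: 2 of the 4 day 1 values of miR-107 lie at Ct 33.00 and 34.17, apart from the other 2, while miR-103 stays between Ct 22.94 and 24.75.

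Raw Ct carries differences in RNA input, so changes are given as log2 values relative to the median miRNA, after removing from each value the median change of the 205 miRNAs under Ct 35 in every well. Values relative to U6, the spliceosomal RNA that the files mark as the endogenous control, stand beside them. The choice matters, because U6 and the median miRNA did not move together. Relative to U6 the median miRNA changed by -1.95 on day 1, -1.17 on day 3 and -0.61 on day 4. On days 7 and 21 it changed by -0.03 and -0.12. The words rose and fell are kept for miRNAs where limma's adjusted p was under 0.05 in the same direction under both scalings. Markers of muscle were abundant: miR-1 and miR-133a had a mean Ct of 12.9 and 9.35 at baseline. Across the miRNAs of the panel changes were the rule: under both scalings 60.4%, 66.7%, 67.1% and 41.3% of miRNAs tested passed on days 3, 4, 7 and 21, so that passing is not in itself particular to the pair. By direction, 41%, 41.3%, 35.7% and 19.2% of them fell and 19.3%, 25.4%, 31.5% and 22.1% rose on those days. On day 1, 47.9% passed, 38.9% lower and 9% higher.

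On day 1, the contrast by which the pair was picked, the log2 change of miR-107 from baseline was -3.48 against the median miRNA and -5.39 against U6. That of miR-103 was -0.24 and -2.15. The single values show that the low level of miR-107 was uneven: relative to the median miRNA its 4 changes were -4.57, -5.83, -1.70 and -1.84. Values 1 and 2 of day 1 were thus far lower than values 3 and 4, and all 4 were below the lowest baseline value of -0.25. The 4 changes of miR-103 were 0.43, -0.09, -0.51 and -0.80, so that 2 of them lay within the baseline range of -0.21 to 0.25 or above it.

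Among 205 miRNAs under Ct 35 in every well, the day 1 SD of miR-107, 2.05, was second only to that of miR-370, 2.11, against a median SD of 0.271. miR-370, a miRNA of the imprinted Dlk1-Dio3 cluster known to act on fatty acid oxidation in liver, was also split. Its changes were -3.38, -4.87, -0.84 and -0.43. Its baseline changes were wide, from -1.61 to 1.11, so that its values 3 and 4 lay within them, unlike those of miR-107. Of 7 myofibre miRNAs listed as markers, 5 were measured and 2, miR-206 and miR-208b, were not among the assays used here. miR-486, a muscle-enriched miRNA, was split likewise, at -4.32, -5.06, -2.47 and -2.70. miR-133a stood at -3.16, -4.10, -2.23 and -2.75, miR-133b between -3.68 in value 2 and -2.16 in value 3, and miR-1 at -4.23, -6.60, -3.81 and -4.75. Value 2 was the lowest of the 4 for all 5 myofibre miRNAs, while value 1 was below values 3 and 4 for miR-486, miR-133a and miR-133b but not for miR-1 or for miR-499 (-1.43, -3.72, -2.66 and -2.23).

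The mean change of the 5 myofibre miRNAs ran from -4.63 to -2.67 over the 4 day 1 values, against -0.26 to 0.17 at baseline, and none of them was at the last cycle in any well. That of the 4 myeloid and lymphoid miRNAs ran from 4.11 to 4.40 on day 1 and from -0.10 to 0.16 at baseline. Their part in the split of miR-107 was not tested. Of the 5 control RNAs, 3 were also later in values 1 and 2 than in values 3 and 4 on day 1. The small cytoplasmic RNA Y1 had a Ct of 23.02 and 23.50 against 21.96 and 22.16, U6 had 13.30 and 12.95 against 11.48 and 12.44, and the small nucleolar RNA U87 had 20.72 and 21.32 against 19.95 and 20.42. The other controls, snoRNA135 (18.69, 18.68, 18.01 and 18.76) and snoRNA202 (14.16, 14.35, 14.08 and 14.49), were not split in this way.

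**Figure D2:**
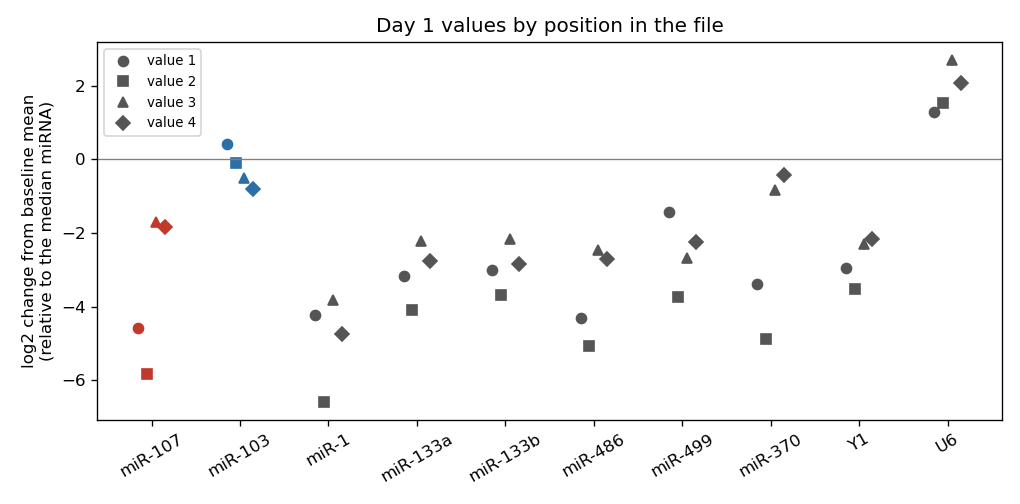
Day 1 values of miR-107, miR-103, the 5 measured myofibre miRNAs, miR-370, Y1 and U6 as log2 change from the baseline mean relative to the median miRNA. Symbols mark the position of each value in the file: values 1 and 2 of miR-107 (-4.57 and -5.83) lie below values 3 and 4 (-1.70 and -1.84), and those of miR-370 and miR-486 do so too.

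On day 1 miR-107 ranked 3 of 211 miRNAs from the lowest, just above miR-486 at -3.64 and just below miR-365 at -3.47. miR-103 ranked 98, between miR-143 at -0.24 and miR-379 at -0.22. Leaving out each of the 8 day 1 or baseline values in turn moved the day 1 change of miR-107 between -4.08 and -2.70, and that of miR-103 between -0.47 and -0.06. Relative to Y1 miR-103 lay above baseline on day 1, at 2.49, and miR-107 below it, at -0.75.

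miR-107 was still below baseline on day 3, and its values on day 4 overlapped those of baseline relative to the median miRNA. Relative to the median miRNA its 4 changes on day 3 were -1.39, -1.35, -1.92 and -1.94, close together and all below the baseline values of -0.11, -0.25, -0.02 and 0.39. It fell by 1.65 ± 0.60 on the log2 scale against baseline (SE, 4 values per group), 3.14-fold, with an adjusted p of 0.0164 in limma, and relative to U6 by 2.77 ± 0.58 (adjusted p = 9.51e-05). The change was negative under all 8 other scalings, from -3.43 to -0.33, but did not pass relative to Y1 (-0.33) or in raw Ct (-0.94). On day 3, 41% of the 212 miRNAs tested fell under both scalings, and 21.2% of them had a lower change than miR-107.

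Between day 3 and day 4 miR-107 rose by 1.87 ± 0.60 relative to the median miRNA, 3.65-fold (limma adjusted p = 0.0133), and by 2.32 ± 0.58 relative to U6 (adjusted p = 0.0029). The day 4 changes from the baseline mean were 0.05, 0.77, 0.14 and -0.08, all above the 4 day 3 values. Of 216 miRNAs, 21.3% rose under both scalings over this interval. The change was positive under all 8 other scalings, from 0.84 to 2.32, but did not pass relative to Y1, where it was smallest. It passed without any single value of either day, at 1.69 to 1.97. The means of this contrast include none of the baseline and day 1 values, which enter its error through the common spread.

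On day 7 the changes of miR-107 were -0.65, -0.13, -0.36 and 0.13, which overlap the baseline values. The fitted change was 0.22 on day 4, with a 95% interval of -1.04 to 1.48, and -0.25 on day 7, with an interval of -1.51 to 1.00. Neither passed the test relative to the median miRNA or U6, the day 4 change ran from -1.31 to 1.16 and that of day 7 from -1.63 to 0.94 under the 8 other scalings, and the intervals leave room for changes of more than 1 on the log2 scale. Among the alternative scalings and fits, 1 called miR-107 lower on day 4 and 2 did so on day 7. The day 1 values enter the common spread. In a fit without day 1, added after seeing the data, the intervals were -0.34 to 0.78 and -0.82 to 0.31.

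On day 21 miR-107 stood at -0.43, -0.81, -0.42 and -1.69, each below the lowest baseline value. The change of -0.84 ± 0.60 did not pass relative to the median miRNA (limma adjusted p = 0.22) or relative to U6 (-0.96, adjusted p = 0.181). It passed relative to the median miRNA in the fit without day 1 (SE 0.27, adjusted p = 0.00905) and with only days 21 and baseline in the fit (adjusted p = 0.0297).

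Relative to the median miRNA, miR-103 had its lowest mean level on day 7, when the values of miR-107 overlapped those of baseline. Relative to U6 its mean was lowest on day 1 (-2.15) and lower on day 3 (-1.94) than on day 7, and in raw Ct it was lowest on day 21. Its 4 changes on day 7 were -1.28, -1.76, -0.87 and -1.65 relative to the median miRNA, all below the baseline values of -0.03, -0.21, -0.01 and 0.25. It fell by 1.39 ± 0.30, 2.62-fold (limma adjusted p = 0.000217), and relative to U6 by 1.48 ± 0.54 (adjusted p = 0.0168). The change was below 0 under all 8 other scalings, from -2.56 to -0.20, but did not pass relative to Y1 (-0.29) or in raw Ct (-0.20). On day 7, 35.7% of the 213 miRNAs fell under both scalings, and 24.4% had a lower change than miR-103. In raw Ct the day 7 mean of 23.9 ± 0.41 (SD, n = 4) and the baseline mean of 23.7 ± 0.41 lay within their spread, while the median miRNA reached its threshold earlier on day 7 than at baseline.

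On day 3 miR-103 fell by 0.81 ± 0.30 relative to the median miRNA (limma adjusted p = 0.0168) and by 1.94 ± 0.54 relative to U6 (adjusted p = 0.00219), although relative to Y1 it lay at 0.51. Its 4 changes, -0.18, -1.33, -0.36 and -1.38, overlapped the baseline range. The call was lost without baseline value 4, without day 3 value 2 and without day 3 value 4, with a limma adjusted p of at most 0.0861.

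On day 4 the change of miR-103 was -0.49 ± 0.30 (limma adjusted p = 0.131), with a 95% interval of -1.12 to 0.13. On day 21 it was -0.68 ± 0.30, which passed relative to the median miRNA (limma adjusted p = 0.047) but not relative to U6 (-0.80, adjusted p = 0.237). Against the median miRNA alone 73.2% of miRNAs passed on that day. Without single values that day 21 call was lost in 7 of 8 fits. Between successive days miR-103 changed by 0.32 between days 3 and 4, by -0.90 between days 4 and 7, and by 0.71 between days 7 and 21, with none passing under both scalings. Of all miRNAs 23.1%, 17.1% and 33.8% passed over those intervals.

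**Figure D3:**
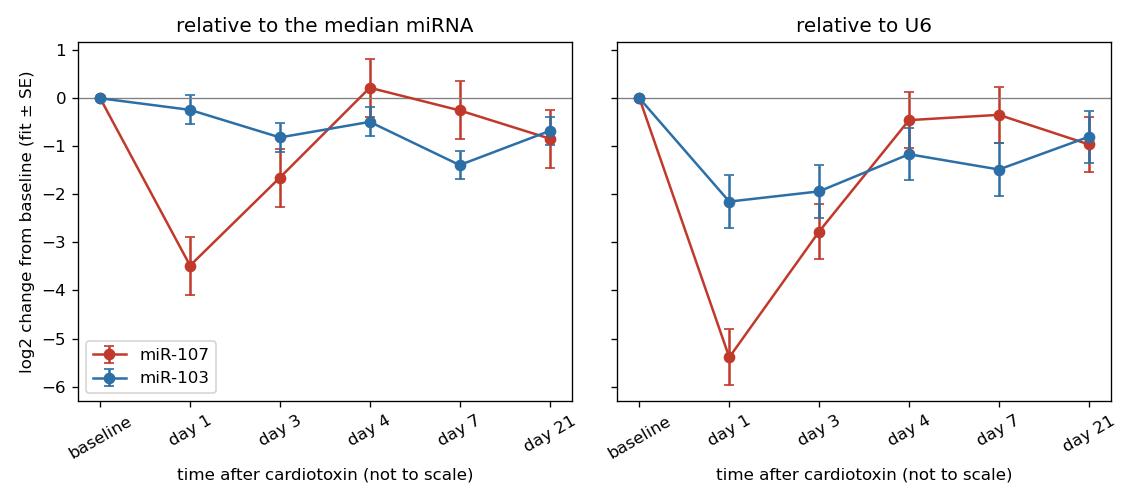
Log2 change from baseline of miR-107 and miR-103 relative to the median miRNA (left) and to U6 (right), with the SE of the fit. miR-107 is lowest on day 1 (-3.48 and -5.39) and near 0 on days 4 and 7, while miR-103 relative to the median miRNA is lowest on day 7 (-1.39).

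The gap between the assays, the Ct of miR-107 minus that of miR-103 at the same position in the file, needs no normaliser if both values come from the same RNA. At baseline the nth values of the assays moved together, with gaps of 5.09, 5.05, 5.03 and 4.88 cycles. On day 1 the gaps were 10.01, 10.75, 6.20 and 6.05, on day 3 they were 6.22, 5.03, 6.57 and 5.57, and on day 4 they were 4.68, 3.40, 4.62 and 4.51. On day 7 they were 4.39, 3.38, 4.50 and 3.23, and on day 21 they were 4.13, 5.61, 4.73 and 6.21. The gap was wider than at baseline in all 4 day 1 values, and narrower than at baseline in all 4 values of day 4 and of day 7. The SD of the gap was 0.0918 cycles at baseline and between 0.606 and 2.48 cycles on the later days. At baseline it was below the Ct SD of either assay (0.49 for miR-107 and 0.41 for miR-103). On days 1, 4, 7 and 21 it was above the Ct SD of either assay, so the nth values did not move together there, and on day 3 it lay between them. The SE and the exact test of the ratio below rest on this matching by position.

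Expressed as a log2 ratio of miR-107 to miR-103, the mean change from baseline was -3.24 on day 1 (SD 2.48 on day 1 and 0.0918 at baseline), a 9.45-fold lower ratio that the choice of the pair used. It was -0.83 ± 0.35 on day 3, 0.71 ± 0.31 on day 4, 1.14 ± 0.33 on day 7 and -0.16 ± 0.46 on day 21 (SE, n = 4 each). The exact permutation test gave its smallest possible two-sided p, 0.0286, on days 4 and 7, and 0.114 and 0.743 on days 3 and 21. Adjusted over the 7 comparisons made, the exact p was 0.0667 on days 4 and 7, so neither passed 0.05. A comparison at the smallest possible p passes only if most of the 7 reach it, so full separation in a few of them could not pass. The same adjusted p of 0.0667 came from day 4 against day 3, where the ratio was 1.54 ± 0.46 higher with no overlap (exact test). The changes in ratio between days 4 and 7 and between days 7 and 21, 0.43 and -1.29, had exact p-values of 0.171 and 0.114.

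In day 1 value 2 the gap of 10.75 cycles equals 0.0581% of the miR-103 signal at 1 doubling per cycle and like efficiency, against 3.1% for the mean baseline gap. Both shares take the values of the assays at the same position to come from the same RNA. Whether the miR-107 assay reads any miR-103 was not tested.

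**Figure D4:**
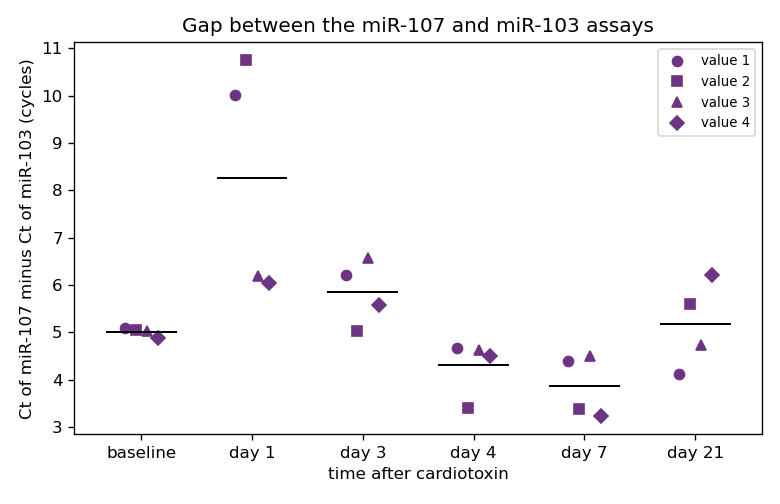
Ct of miR-107 minus Ct of miR-103 for each of the 4 values at baseline and on each day, with means as bars. A wider gap means less miR-107 relative to miR-103: the baseline gaps lie between 4.88 and 5.09 cycles, those of day 1 between 6.05 and 10.75, and those of day 7 between 3.23 and 4.50.

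How far other near-identical miRNAs drift apart was read from 33 other pairs with the same seed and at most 2 different bases. This set was chosen after the values were seen, among 57 hand-listed assays with a matched sequence and not among all 217 miRNA assays. Many of these pairs share a member, above all within the let-7 family with miR-98, so they are not separate cases. On day 1 the changes of miR-107 and miR-103 differed by 3.24 on the log2 scale, against a median of 0.72 and a range of 0.03 to 3.06 for the other pairs. The next widest pair was miR-130a and miR-130b, which come from different loci, at 3.06. The top place of miR-107 and miR-103 follows from how they were picked. On days 3, 4, 7 and 21 they differed by 0.83, 0.71, 1.14 and 0.16, which ranked 13, 15, 10 and 26 of the 34 pairs, with medians of 0.77, 0.54, 0.85 and 0.36 for the others. After day 1 the pair was thus no further apart than many pairs of this kind, such as let-7a and miR-98, which differed by 3.27 on day 4.

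**Figure D5:**
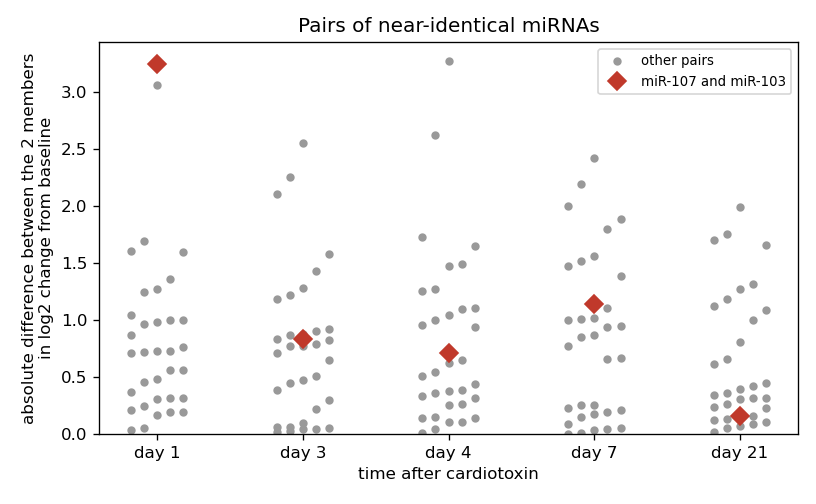
Absolute difference between the members of each near-identical pair among the hand-listed assays in log2 change from baseline, by day. Red diamonds are miR-107 and miR-103 and grey dots the 33 other pairs: the diamond lies above all dots on day 1 (3.24), the contrast by which it was picked, and among them on later days.

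The miRNAs whose course was nearest to that of each member were ranked by the root mean square difference of the 5 changes from baseline, over 209 candidates detected in all 6 groups. For miR-103 they were miR-148b (0.328), let-7e (0.331), miR-872 (0.388), miR-140 (0.395) and let-7g (0.431). miR-148b, for instance, stood at -0.32, -0.81, -0.86, -1.64 and -1.26 on days 1, 3, 4, 7 and 21. For miR-107 the nearest were miR-125b-5p (1.16), let-7f (1.23), miR-708 (1.24), miR-128a (1.24) and let-7a (1.28). No candidate came as near to miR-107 as the fifth neighbour did to miR-103. miR-103 itself ranked 28 in likeness to miR-107, at 1.61, and Pearson's r between the pair over the 6 group means was -0.18. These groups share their baseline values and the scaling. Both measures include day 1, the contrast by which the pair was picked, where the changes were -3.48 and -0.24. The distances of miR-107 and the low likeness of the pair therefore follow in part from that choice. With r as the measure 1 of the 5 names was kept for each member.

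Relative to the median miRNA, the 7 relatives by seed, all of them tested, had changes in both directions on every day. Their likeness to either member as a group was not tested. On day 1 their changes ran from -0.53 to 2.87 relative to the median miRNA, with a median of 1.06 against -0.04 over all miRNAs. Under both scalings 0 rose and 1 fell, against 9% and 38.9% of all miRNAs. That one was miR-497, at -0.53 and relative to U6 -2.44. miR-15b and miR-503 lay highest, at 2.87 and 2.54, but at 0.96 and 0.64 relative to U6.

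On day 3, 2 of the 7 rose and 4 fell, against 19.3% and 41% of all miRNAs. The risers were miR-15b (2.43) and miR-503 (2.13), while miR-16 (-0.68), miR-195 (-1.33), miR-322 (-1.31) and miR-497 (-0.55) fell. On day 4, 2 rose and 4 fell, against 25.4% and 41.3% of all miRNAs, with miR-503 at 3.68 and miR-195 at -1.68. On day 7, 1 rose and 4 fell, against 31.5% and 35.7%, with miR-503 at 2.36 and miR-16 at -2.13. On day 21, 1 rose and 1 fell, miR-503 (1.51) and miR-16 (-1.08), against 22.1% and 19.2%. The median change of the 7 was -0.55, -0.41, -0.97 and 0.09 on days 3, 4, 7 and 21, against -0.05, 0.06, 0.06 and 0.00 over all miRNAs tested. miR-503 and miR-322 are neighbours on the X chromosome and went opposite ways on days 3 and 7 under both scalings.

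Of the miRNAs known for roles in insulin action, lipid or mitochondrial metabolism, 12 assays were measured, while miR-33, miR-122, miR-375 and miR-378 are not among the assays used here. On day 1, 5 of the 12 fell and 0 rose, a share near the 38.9% of all miRNAs that fell, led by miR-370 (-2.38) and miR-29c (-1.96), a miRNA that acts on insulin signalling and matrix mRNAs. On day 3, 3 of the 12 rose and 5 fell, against 19.3% and 41% of all miRNAs, with miR-34a (2.16), a p53 target, among the risers. On day 4, 3 rose and 6 fell, against 25.4% and 41.3% of all miRNAs. On day 7, 3 rose and 5 fell, against 31.5% and 35.7%, and on day 21, 3 rose and 4 fell, against 22.1% and 19.2%. The risers of day 7 were miR-370 (5.50), miR-335-3p (3.65) and miR-335-5p (3.23), and miR-29c (-3.72) and miR-143 (-2.39), a miRNA of smooth muscle and of insulin action in liver, lay lowest. miR-210, induced by hypoxia, did not pass under both scalings before day 21, when it stood at -1.20. The list median was -0.30, 0.04, -0.31, -0.50 and -0.25 on days 1, 3, 4, 7 and 21.

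Cell type markers moved over the same days as the pair. The mean change of the 5 myofibre miRNAs ran over the 4 values from -6.98 to -5.58 on day 3, from -3.90 to -3.03 on day 4, from -2.66 to -1.87 on day 7 and from -1.46 to -0.93 on day 21. The day 3 mean includes miR-499, which was over Ct 35 in all 4 wells of that day and was not tested. Without miR-499, in a calculation added after seeing the data, the mean of the other 4 ran from -6.25 to -4.72 on day 3 and from -3.79 to -2.81 on day 4, and all 4 fell on day 3. With or without miR-499 the mean was lowest on day 3, while miR-107 was lowest on day 1. The mean change of the 4 myeloid and lymphoid miRNAs ran from 2.53 to 2.69 on day 3, from 1.56 to 1.76 on day 4, from 0.59 to 0.93 on day 7 and from 0.16 to 0.35 on day 21. Its members parted: miR-150, the lymphocyte miRNA, fell on days 3, 4 and 7 (-1.31, -1.84 and -2.10), whereas miR-142-3p (4.03, 3.19 and 2.19) and miR-142-5p (3.99, 3.13 and 2.11) rose. miR-223, of neutrophils and other myeloid cells, rose on days 3 and 4 (3.74 and 2.15) and stood at 0.75 on day 7.

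Markers of other cell types moved as well. The mean change of the 5 epithelial miRNAs ran from 4.21 to 4.48 on day 1 and from 3.14 to 3.58 on day 3, and on day 21 it ran from -0.81 to 0.40, against -0.69 to 0.31 at baseline. Of these 5, miR-203 fell on days 1 and 3 (-0.50 and -1.19) while the other 4 rose. The 2 endothelial miRNAs ran from -0.06 to 0.26 on day 1, from -2.43 to -1.57 on day 3 and from -2.96 to -2.39 on day 4. The 4 fibroblast and smooth muscle miRNAs ran from -1.10 to -0.71 on day 1 and from -1.27 to -0.83 over days 3 to 7. That mean joins unlike members: on day 3 miR-145 (-3.06) and miR-143 (-2.02) fell while miR-214 stood at 1.02 and miR-199a-3p at -0.05, and on day 7 miR-214 rose (1.23). A single erythroid and a single neuronal miRNA were measured, at a mean of 1.58 and -0.04 on day 1. The part of these cell types in the changes of miR-103 and miR-107 was not tested.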

How the data were processed

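The deposited files held raw threshold cycles (Ct) from standard TaqMan assays run for 40 cycles on a 7900HT instrument, with RNA of integrity number above 9, per the labels. No normalization was applied by the authors, while RNA input and the Ct threshold were not given in the sources used here. Each file had 222 assays (217 miRNAs, 5 controls) with 4 values per group, and all 5 files repeated the same baseline values, which were used once. Depth has no counterpart in Ct data: the 4 values per group limit the precision.

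A miRNA was tested where its Ct was under 35 in at least 3 of 4 wells of both groups, and wells at 40 were left out. All 6 groups entered a limma 3.58.1 fit (lmFit, eBayes, R 4.3.3), with two-sided p-values adjusted by Benjamini-Hochberg over all miRNAs of a contrast, after testing on simulated data. The assay gap was tested by exact permutation over 7 comparisons. Named miRNAs are the pair, both lists, the markers, controls, neighbours in day 1 rank and 5 nearest courses each, plus near-identical pairs named after their values were seen. Members and lists were chosen with earlier results of these data known. Sequences were matched to RefSeq for 57 of 62 listed arms.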

Additional observations from a re-analysis of the deposited data

Results flagged for a closer look

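In the day 4 values the gap between the miR-107 and miR-103 assays was 3.40 cycles in value 2, apart from the other 3 at 4.51 to 4.68 cycles. The distance to its nearest neighbour was 0.867 of the range, above Dixon's 95% critical value for 4 values. Chance gives such a value in about 1 of 20 groups, and 30 groups of 4 values were examined. Without that value the day 4 change in the ratio of miR-107 to miR-103 was 0.41.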

How the results depend on the processing

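No paired analysis was possible because neither labels nor files give replicate numbers that tie values across groups. Scaling was the choice that moved most. Relative to Y1 miR-103 stood at 2.49 on day 1, 0.51 on day 3 and 0.39 on day 21, so it reversed, and at -0.29 on day 7, where miR-103 lost its call, as miR-107 did on day 3 (-0.33). With raw Ct miR-103 stood at 0.14 on day 1, -0.11 on day 3, -0.20 on day 7, -0.53 on day 21 and -0.33 between days 7 and 21, and miR-107 at -0.94 on day 3. Relative to snoRNA202 miR-103 lost its day 3 call (-0.52). On day 21 it was not called relative to U6 (-0.80) or U87 (-0.92), and between days 1 and 3 it stood at 0.21 relative to U6. Calls were gained by miR-103 on day 4 relative to snoRNA135 (-2.02), the median Ct (-0.74), after quantile scaling (-0.88) and with only those groups fitted (-0.49), and by miR-107 relative to snoRNA135 on days 7 (-1.42) and 21 (-1.98). Quantile scaling gave miR-107 -1.27 on day 4, -1.63 on day 7, -1.18 on day 21 and -0.056 between days 1 and 3. Across all the alternative scalings and fits, miR-107 was called lower than baseline under 1 on day 4, 2 on day 7 and 4 on day 21. With only days 21 and baseline, or without day 1, the day 21 value of miR-107 was unchanged (-0.84) and passed. Its SE was then 0.29 or 0.27, against 0.60 in the main fit, whose common spread includes the day 1 values. Why the scalings differ was not tested.

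Leaving out 1 value gave ranges from baseline for miR-103 of -1.03 to -0.60 on day 3, -0.60 to -0.37 on day 4, -1.56 to -1.27 on day 7 and -0.83 to -0.47 on day 21. For miR-107 they were -1.75 to -1.50, 0.04 to 0.35, -0.38 to -0.12 and -0.98 to -0.55. The ratio ran from -1.11 to -0.59, 0.41 to 0.84, 0.92 to 1.35 and -0.50 to 0.19. With 3 values against 4 its exact test cannot go below 0.0571. As a row of the limma fit no change in ratio passed. None passed the exact test either, but there the adjustment allowed it only if most of the 7 comparisons reached the smallest possible p. Counts of calls followed the scaling too: on days 1, 3, 4, 7 and 21, 87, 82, 92, 86 and 76 of all miRNAs were called higher relative to the median miRNA, and 19, 41, 54, 67 and 47 relative to U6. On the same days, 82, 87, 88, 90 and 80 were called lower relative to the median miRNA, and 2, 35, 70, 38 and 7 relative to Y1. Relative to Y1, 0, 0, 2, 1 and 0 of the 7 relatives by seed and 0, 1, 4, 3 and 0 of the 12 metabolic assays were called lower on those days.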
